A study of Homo sapiens with 12 samples.

Results

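The glutathione transferases and redox enzymes described here are 9 genes: the membrane transferases MGST1, MGST2 and MGST3, the cytosolic transferase GSTP1, the glutathione synthesis subunits GCLC and GCLM, the reductase GSR, and the peroxidases GPX1 and GPX4. They were chosen by name from the 26231 genes of the deposited normalized table, and all 9 were found in it. The choice was made with measured values known: MGST1 and MGST2 had stood out as present in untreated SH2 cells and without a count in untreated control cells, so for the 9 genes that comparison is a description with no test. For MGST1 and MGST2 the comparison of treated SH2 with treated control cells is a description too, since both passed the filter on low counts through SH2 cells alone and had to differ. The RNA came from 697(EU3), an established human B-cell precursor leukaemia line, sorted for ALDH+ cells, those with high aldehyde dehydrogenase activity. SH2 cells carry a hairpin RNA directed at IGF2BP1, a fetal RNA-binding protein that tumours re-express, and doxycycline switches on the hairpin together with a green reporter. The 4 untreated SH2 libraries and the 4 treated ones form sets 1 to 4, and the labels' protocols describe a second sort, for reporter-positive cells, once doxycycline had been given. The 2 untreated and 2 treated control libraries belong to sets 2 and 4. Their labels call them the control for doxycycline; whether these cells hold the protocol's scrambled hairpin is not stated there. Each set had a separate ALDH+ sort and a separate doxycycline treatment, all of one cell line, and doxycycline dose and duration were not among the labels.

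Glutathione is a tripeptide made in the cytosol, where glutamate-cysteine ligase (the catalytic subunit GCLC with its modifier GCLM) carries out the rate-limiting step. Transferases attach it to reactive compounds, peroxidases use it to reduce peroxides, and glutathione reductase (GSR) returns the oxidised form to the reduced one with NADPH. Several of these genes, GCLM and GCLC among them, are textbook targets of the transcription factor NRF2, which binds a short motif called the antioxidant response element. In leukaemia cells this system is known for its part in the handling of chemotherapy drugs and of lipid peroxides.

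Between 2210291 and 3370952 reads per library were assigned to genes. IGF2BP1, the gene the shRNA targets, was lower in treated than in untreated SH2 cells in 4 of 4 sets: library-scaled counts (CPM) in sets 1 to 4 were 21.7, 30.5, 39.2 and 32.9 untreated and 6.28, 14.8, 25.0 and 16.2 treated. That is a log2 fold change of -0.99 ± 0.43 (SE), with an unadjusted p of 0.0371 and an adjusted p of 0.983 in edgeR. In the control libraries IGF2BP1 was at 0 to 1.42 CPM. SH2 and control cells also differed in their immunoglobulin light chain: the kappa gene IGKC took 99.7% to 99.9% of light chain reads in control cells, but no more than 0.141% in any SH2 library, although the labels give 1 cell line. Every difference between SH2 and control cells below is therefore a difference between these cells, and the shRNA construct cannot be told apart from it. The treated SH2 library of set 4 stood apart, with a median correlation of 0.882 with the other SH2 libraries and a summed level of 10 interferon response genes of 1196 CPM, against 88.5 to 162 in all other libraries. All 9 B-lineage markers were present in each group, with a sum of 1058 to 2117 CPM in SH2 and 2055 to 2895 in control libraries. The 6 T and NK cell markers summed to 581 and 575 CPM in the control libraries of set 2, to 58.6 and 41.3 in those of set 4, and to 32.8 to 108 in SH2 libraries. The 6 myeloid markers summed to 4.61 to 19.0 CPM in SH2 and 0.362 to 3.32 in control libraries, with ELANE at 0 in all groups and MPO and CSF1R at 0 in untreated SH2 cells. LYZ and CD33 had the highest means of these markers in SH2 cells. CSF1R went the other way, with means of 0 and 0.0842 CPM in untreated and treated SH2 cells. Its means in untreated and treated control cells were 1.42 and 0.672 CPM. Erythroid markers reached at most 0.297 CPM in any library, and epithelial and stromal markers summed to 2.93 to 13.9 CPM in SH2 and 10.4 to 24.9 in control libraries.

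A motif search shows which of the 9 genes have the letters of the antioxidant response element core, TGACNNNGC on either strand, close to a start site. RefSeq promoter windows on GRCh38.p14 (250 bases before and 50 after a start, 300 in all) were searched for 7 of the 9 genes, with 11 windows. MGST2 and GSR were not searched, so nothing is said of their promoters. The letters were found in 1 window each of MGST1, GSTP1 and GCLM, that is 3 of 7 genes. Over all genes with a window, 16.1% had a match, and over all 35116 windows 13.3%. The 3 of 7 genes are not compared with these shares, since MGST2 and GSR were left out of the search. The stretches are shown because they are the 3 matches among these genes; each is written 5′ to 3′ on its gene's strand, with the match in capitals.
MGST1, chr12:16347135-16347163, plus strand, match 30 bases after a start: ggggacatcgTGACAAAGCaaattgtctg
GSTP1, chr11:67583736-67583764, plus strand, match 66 bases before the start: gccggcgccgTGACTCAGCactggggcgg
GCLM, chr1:93909446-93909474, minus strand, match 34 bases before the start and read on the opposite strand: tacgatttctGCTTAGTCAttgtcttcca
The TGACTCAGC of GSTP1 also holds TGACTCA, the AP-1 consensus, so the same letters belong to an overlapping motif. A match describes these letters only.

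GSTP1 was by far the most abundant of the 9 mRNAs in both cells. Levels are CPM on library sizes scaled by TMM; since the kit reads each transcript near its end, CPM was not divided by transcript length, and levels of different genes are compared on that scale. Over the 8 SH2 libraries the mean level was 1647 ± 542 CPM (SD) for GSTP1, 114 ± 59.7 for MGST3 and 96.0 ± 21.6 for GPX4. Lower down came GSR at 61.9 ± 5.27, GPX1 at 54.1 ± 14.0 and MGST2 at 45.8 ± 17.4 CPM. The lowest levels were those of GCLM at 35.4 ± 9.30, MGST1 at 29.8 ± 10.1 and GCLC at 23.7 ± 9.68 CPM. Of these neighbours in the order, the library ranges were separate between GSTP1 and MGST3, and overlapped for every other pair. Over the 4 control libraries the order was GSTP1 at 299.9 ± 103 CPM, GPX4 at 131 ± 11.6, MGST3 at 124 ± 24.5, GPX1 at 75.5 ± 13.6, GSR at 73.3 ± 14.2, GCLM at 38.9 ± 13.8 and GCLC at 13.4 ± 3.31. MGST1 and MGST2 closed it with no count in any control library. There the ranges of GPX4 and MGST3, MGST3 and GPX1, and GPX1 and GSR overlapped. Within SH2 cells MGST3 spread the most, with a highest library 4.79 times the lowest, and GSR the least, with a ratio of 1.27.

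**Figure D1:**
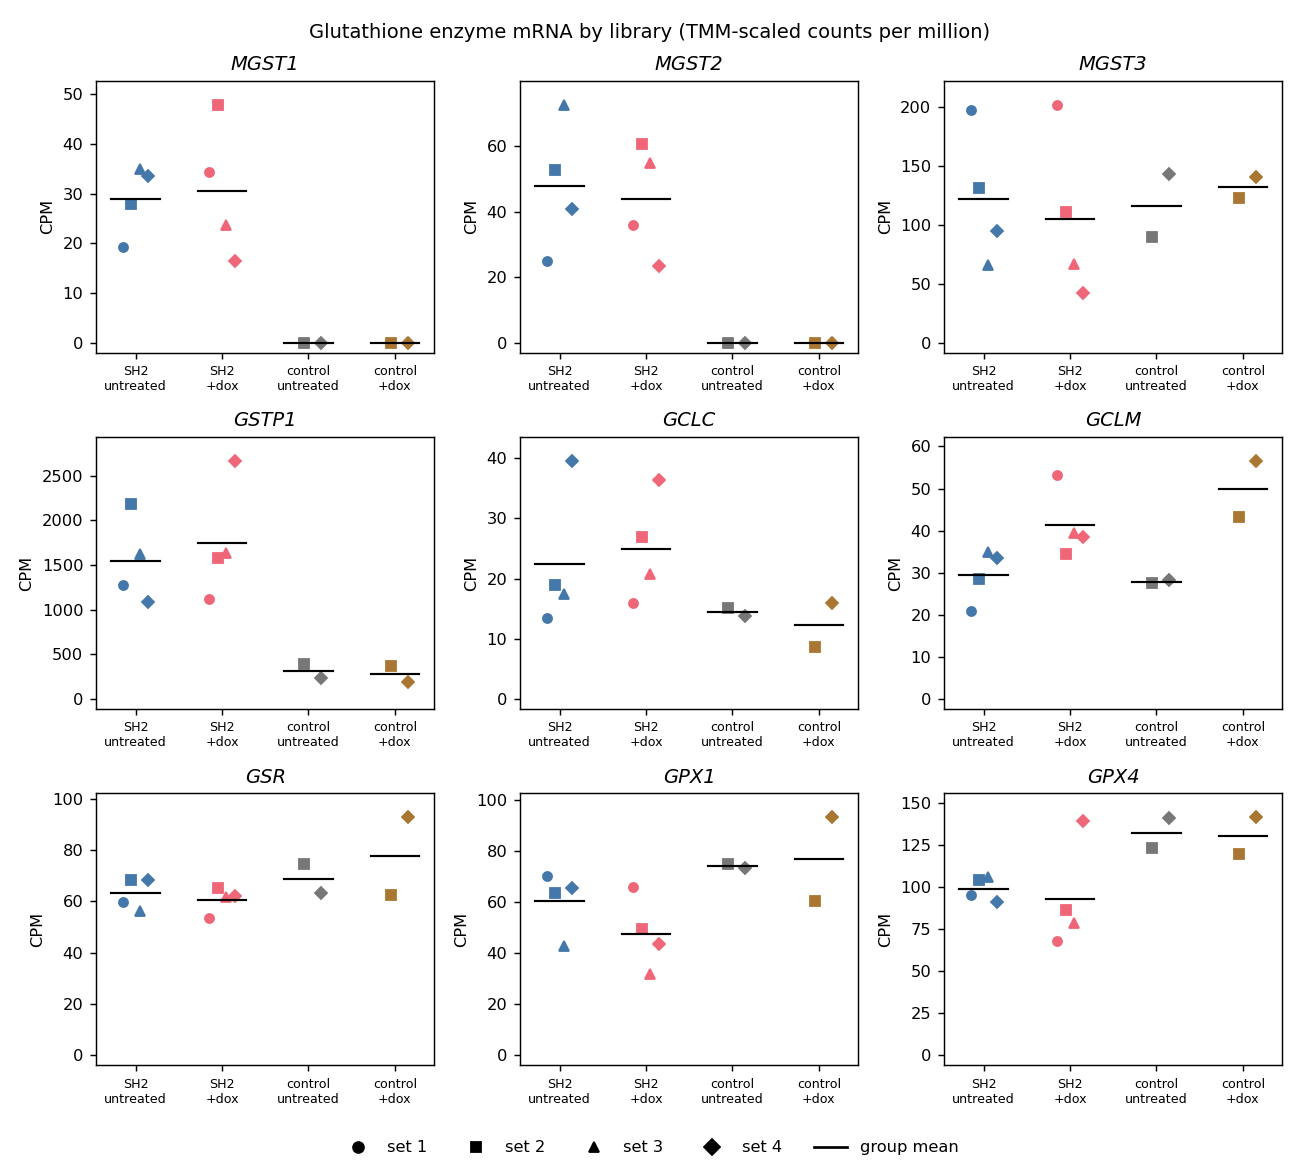
TMM-scaled CPM (y axis, linear, from 0) of each of the 9 genes in the 12 libraries, by group (x axis: SH2 and control cells, untreated and with doxycycline), with 1 point per library, the marker shape giving the set and the line the group mean. MGST1 and MGST2 are at 0 in all 4 control libraries, and GSTP1 lies at 1088 CPM or more in SH2 and at 398 or less in control libraries.

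MGST1 was present in all SH2 libraries and had no count in any control library. The gene (ENSG00000008394, chromosome 12, 16347142 to 16609259, plus strand, GRCh38 with GENCODE v29 positions) encodes a microsomal glutathione transferase that also has peroxidase activity. In sets 1 to 4 its level in untreated SH2 cells was 19.3, 27.9, 35.0 and 33.5 CPM, and in treated SH2 cells 34.4, 47.8, 23.7 and 16.5. Treated and untreated SH2 libraries thus overlapped: the treated library was the higher one in sets 1 and 2 and the lower one in sets 3 and 4. The treated to untreated ratio was 1.78, 1.72, 0.678 and 0.493 in the 4 sets, and the fitted log2 fold change 0.08 ± 0.35 (SE), with a 95% interval from -0.69 to 0.84. Treated SH2 libraries held 329 MGST1 counts and treated control libraries 0, which is at least 57.1-fold higher against a floor of 3 counts over the control group (0.523 CPM). In untreated libraries the counts were 360 and 0, at least 47.9-fold higher against a floor of 0.616 CPM. In bulk RNA, a difference in the share of cells that make an mRNA and a difference in mRNA per cell cannot be told apart.

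MGST2 showed the same presence and absence. It encodes a microsomal enzyme that can join glutathione to leukotriene A4 (ENSG00000085871, chromosome 4, 139665768 to 139740745, plus strand). Untreated SH2 cells held 25.0, 52.8, 72.6 and 40.7 CPM in sets 1 to 4 and treated ones 36.0, 60.8, 54.7 and 23.6, again higher with doxycycline in sets 1 and 2 and lower in sets 3 and 4. The set ratios were 1.44, 1.15, 0.754 and 0.579, and the fitted log2 fold change -0.13 ± 0.37, with an interval from -0.93 to 0.68. Over the 8 SH2 libraries log2 levels of MGST1 and MGST2 had a Pearson r of 0.729, given as a description of libraries that share sets and depth. Treated SH2 libraries held 482 counts of MGST2 and treated control libraries 0, at least 83.6-fold higher. The untreated libraries held 598 and 0 counts, at least 79.5-fold higher. MAML3 overlaps MGST2 on the opposite strand and had 218 counts over all libraries, 194 of them in SH2 cells, against 1080 for MGST2; the strand setting of the counting was not among the labels. Summed myeloid markers were also higher in SH2 than in control libraries (4.61 to 19.0 against 0.362 to 3.32 CPM), though CSF1R among them was not. Their part in the MGST1 and MGST2 values was not tested.

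MGST3, the third membrane transferase, was present in control cells too. It lies on chromosome 1 (ENSG00000143198, 165630861 to 165661796, plus strand), and its product has transferase and peroxidase activity in vitro. Its level was 197, 131, 66.4 and 94.7 CPM in untreated SH2 cells and 202, 111, 66.6 and 42.1 in treated ones. Control cells held 89.7 and 143 CPM untreated and 123 and 140 treated, within the SH2 range. The SH2 libraries of set 1 were the highest and the treated library of set 4 the lowest, at 0.444 times its untreated partner, while the ratio in the other sets ran from 0.845 to 1.02. The doxycycline response was -0.22 ± 0.44 on the log2 scale (interval -1.16 to 0.72) and 0.05 without the treated SH2 library of set 4. Between treated SH2 and treated control cells the difference was -0.33 ± 0.53, adjusted p = 0.753.

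GSTP1 was several-fold higher in SH2 than in control cells. The gene (ENSG00000084207, chromosome 11, 67583595 to 67586656, plus strand) encodes the pi-class cytosolic transferase, known for high levels in tumours and for binding the stress kinase JNK. In untreated SH2 cells its level was 1280, 2188, 1619 and 1088 CPM in sets 1 to 4, and in treated ones 1117, 1584, 1640 and 2663. Control cells held 398 and 238 CPM untreated and 377 and 188 treated, in sets 2 and 4. Every SH2 library lay above every control library, and the share of all genes that do so was not computed. Treated SH2 cells were 6.20-fold above treated control cells (log2 2.63 ± 0.47, interval 1.62 to 3.65, adjusted p = 0.00267 in edgeR), and 4.21-fold and 14.2-fold within sets 2 and 4. Without the treated control library of set 4 the adjusted p was 0.0516, with a log2 fold change of 2.21; without the treated SH2 library of set 4 these were 0.00261 and 2.36. In untreated cells the fold was 4.86, and 5.50 and 4.58 within the sets. Among control libraries GSTP1 was higher in set 2, the set with the high T and NK cell marker sum, and the part of that marker difference was not tested. GSTP1 was lower with doxycycline in SH2 sets 1 and 2 (0.873 and 0.724 times), nearly level in set 3 (1.01) and higher in set 4 (2.45). Its response was 0.18 ± 0.34 on the log2 scale (interval -0.54 to 0.90), and -0.09 without the treated library of set 4, which also carried the high interferon sum. The processed pseudogene GSTP1P1 had 0 counts in all libraries.

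GCLC, the catalytic subunit of glutamate-cysteine ligase, passed the threshold between treated SH2 and treated control cells when the set was kept as a block, and not without the block. It lies on chromosome 6 (ENSG00000001084, 53497341 to 53616970, minus strand). Its level was 13.5, 19.0, 17.5 and 39.5 CPM in untreated SH2 cells and 15.9, 27.0, 20.8 and 36.4 in treated ones, against 15.2 and 13.7 in untreated and 8.65 and 16.1 in treated control cells. Both SH2 libraries of set 4 were the highest of all. Treated SH2 against treated control cells gave 1.02 ± 0.48 on the log2 scale (interval -0.01 to 2.06, adjusted p = 0.204), and 1.41 with an adjusted p of 0.0125 when the set was kept as a block. Within sets the fold was 3.12 in set 2 and 2.27 in set 4. With doxycycline the SH2 set ratios of GCLC were 1.18, 1.42, 1.19 and 0.920, and the fitted response was 0.16 ± 0.37 (interval -0.63 to 0.95).

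GCLM, the modifier subunit, was higher with doxycycline in all 6 sets of both cells, without passing the threshold over all genes. The share of all genes higher in all 6 sets was not computed, so nothing is read from that count. GCLM lies on chromosome 1 (ENSG00000023909, 93885205 to 93909456, minus strand). Untreated SH2 cells held 20.9, 28.5, 35.0 and 33.5 CPM and treated ones 53.2, 34.6, 39.5 and 38.4. Control cells went from 27.5 to 43.3 CPM in set 2 and from 28.2 to 56.5 in set 4. Ratios were 2.55, 1.21, 1.13 and 1.15 in SH2 sets 1 to 4, and 1.57 and 2.01 in control sets 2 and 4. SH2 groups overlapped, since the treated library of set 2 lay below the untreated one of set 3, while both treated control libraries lay above both untreated ones. In SH2 cells the log2 response was 0.49 ± 0.24 (interval -0.03 to 1.01, unadjusted p = 0.0640, adjusted p = 0.983). In control cells it was 0.84 ± 0.35 (interval 0.10 to 1.58, unadjusted p = 0.0292, adjusted p = 1). The difference between the responses was -0.35 ± 0.42, with an interval from -1.25 to 0.55 and an adjusted p of 1. A contrast chosen after these values were seen, the mean of both responses, gave 0.66 ± 0.21, or 1.58-fold (interval 0.21 to 1.12 on the log2 scale, unadjusted p = 0.00716, adjusted p = 0.9999). In that contrast 2.82% of all genes had an unadjusted p under 0.05 and 0% passed after adjustment. Leaving out each library in turn kept the mean response between 0.56 and 0.75.

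**Figure D2:**
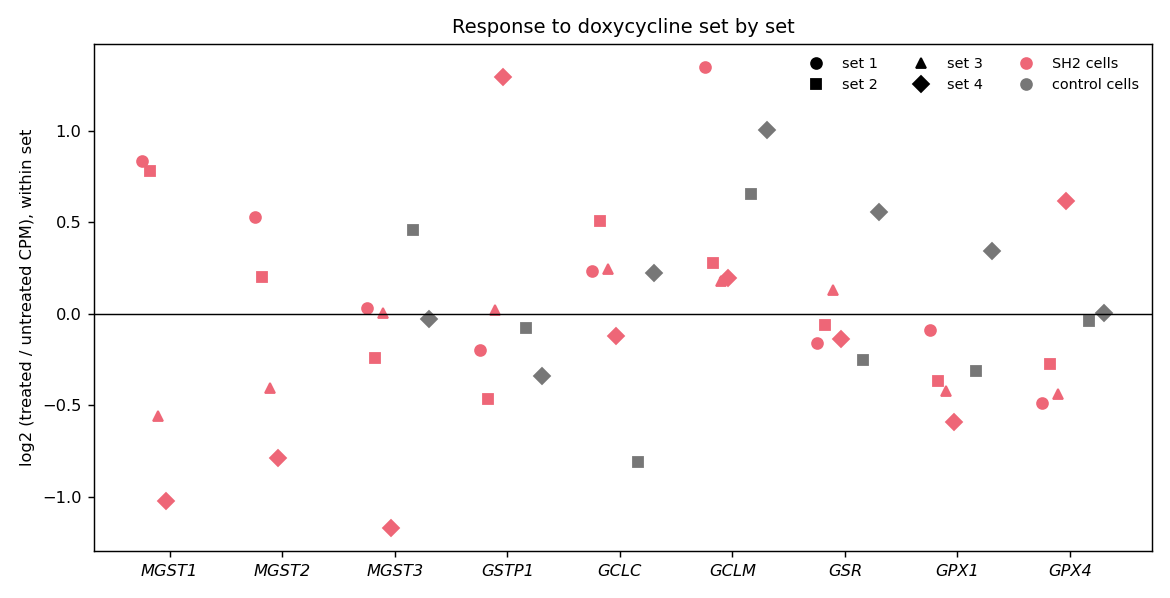
Log2 ratio of treated to untreated CPM (y axis) for each of the 9 genes (x axis), 1 point per set, in SH2 cells (sets 1 to 4) and control cells (sets 2 and 4); MGST1 and MGST2 have no control points since control cells were at 0. All 6 GCLM points lie above 0, all 4 SH2 points of GPX1 below it, and MGST1 and MGST2 are above 0 in sets 1 and 2 and below it in sets 3 and 4.

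GSR was the most even of the 9 genes over the SH2 libraries. Over the control libraries its highest level was 1.49 times the lowest, against 1.18 for GPX4. GSR encodes the reductase that regenerates glutathione (ENSG00000104687, chromosome 8, 30678061 to 30727999, minus strand). SH2 cells held 59.8, 68.2, 56.4 and 68.2 CPM untreated and 53.6, 65.3, 61.6 and 62.0 treated, and control cells 74.5 and 63.3 untreated and 62.5 and 92.8 treated. The treated control library of set 4 was the highest, and all groups overlapped. The SH2 response was -0.06 ± 0.21 on the log2 scale, with an interval from -0.50 to 0.38, and the difference between treated SH2 and treated control cells -0.36 ± 0.25 (adjusted p = 0.410).

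The peroxidases GPX1 and GPX4 had lower mean levels in SH2 cells than in control cells, and neither passed the threshold. GPX1, the abundant cytosolic selenoenzyme that reduces hydrogen peroxide (ENSG00000233276, chromosome 3, 49357171 to 49358600, minus strand), was at 70.1, 63.8, 42.8 and 65.5 CPM in untreated and 65.8, 49.4, 32.0 and 43.5 CPM in treated SH2 cells. Control cells held 75.0 and 73.4 CPM untreated and 60.3 and 93.2 treated. With doxycycline GPX1 was lower in 4 of 4 SH2 sets, at 0.939, 0.774, 0.748 and 0.664 times, although the groups overlapped. The share of all genes lower in 4 of 4 SH2 sets was not computed. In control cells GPX1 was lower in set 2 and higher in set 4. Its SH2 response was -0.35 ± 0.26 (interval -0.91 to 0.22, adjusted p = 0.983), and the difference from the control response -0.39 ± 0.45 (adjusted p = 1). Treated SH2 against treated control cells gave -0.69 ± 0.31, with an interval from -1.36 to -0.02 and an adjusted p of 0.189. The GPX1 pseudogenes GPX1P1 and GPX1P2 had 1 and 0 counts.

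GPX4, the selenoenzyme that reduces lipid peroxides in membranes and whose loss leads to ferroptosis, lies on chromosome 19 (ENSG00000167468, 1103926 to 1106791, plus strand). SH2 cells held 95.1, 104, 106 and 90.8 CPM untreated and 67.9, 86.2, 78.4 and 139 treated. Control cells held 123 and 141 CPM untreated and 119.5 and 141 treated. In sets 1 to 3 the treated library was the lower one, at 0.714, 0.828 and 0.738 times, and in set 4 the higher one, at 1.53 times. The SH2 response was -0.09 ± 0.24 (interval -0.60 to 0.42), and -0.35 without the treated library of set 4. Treated SH2 against treated control cells gave -0.49 ± 0.29 (adjusted p = 0.317); without the treated SH2 library of set 4 the value was -0.75 and the adjusted p 0.0469 in edgeR. Over the 8 SH2 libraries log2 levels of GPX4 followed those of GSTP1 with r = 0.755, and GPX1 those of MGST3 with r = 0.778, as descriptions.

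Read together, the 9 genes gave no call for doxycycline. All 9 passed the filter on low counts, MGST1 and MGST2 through SH2 cells alone. In treated against untreated SH2 cells 0 of 9 passed an adjusted p of 0.05 by edgeR, against 0.0167% of the 11968 genes tested (2 genes, and 6 with the set as a block), and 0 of 9 had an unadjusted p under 0.05, against 4.88% of all genes. DESeq2 also called 0 of the 9. The fitted change was positive for 4 genes and negative for 5, with a median of -0.06, where the median of all genes was 0.03. None of the 9 had SH2 groups that did not overlap, against 3.41% of all genes. In control cells 0 of 9 passed (0% of all genes), and GCLM was the 1 gene with an unadjusted p under 0.05, against 0.685% of all genes; it was also the 1 gene whose control groups did not overlap, where 24% of all genes had such groups, 12.3% with the treated libraries higher. The difference between the responses was called for 0 of 9, with 0% called over all genes and 0.969% of all genes at an unadjusted p under 0.05. The SH2 and the control response share no library; the difference uses both.

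Between treated SH2 and treated control cells, GSTP1 was the 1 gene called of the 7 that had counts in both cells, and it was higher in SH2 cells. Over all genes 11.1% were called, 4.6% as higher and 6.48% as lower (1326 genes in all, and 2171 with the set as a block). GSTP1 was also the 1 gene of these 7 whose groups did not overlap, where 31.9% of all genes had such groups, 15.4% with SH2 cells higher. Nothing is read from the test of MGST1 and MGST2. In the untreated libraries, where MGST1 and MGST2 were chosen, 3 of 9 genes lay above and 2, GPX1 and GPX4, below all control libraries; 32.9% of all genes did not overlap there, 15.5% above and 17.4% below, and nothing is read from this count.

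**Figure D3:**
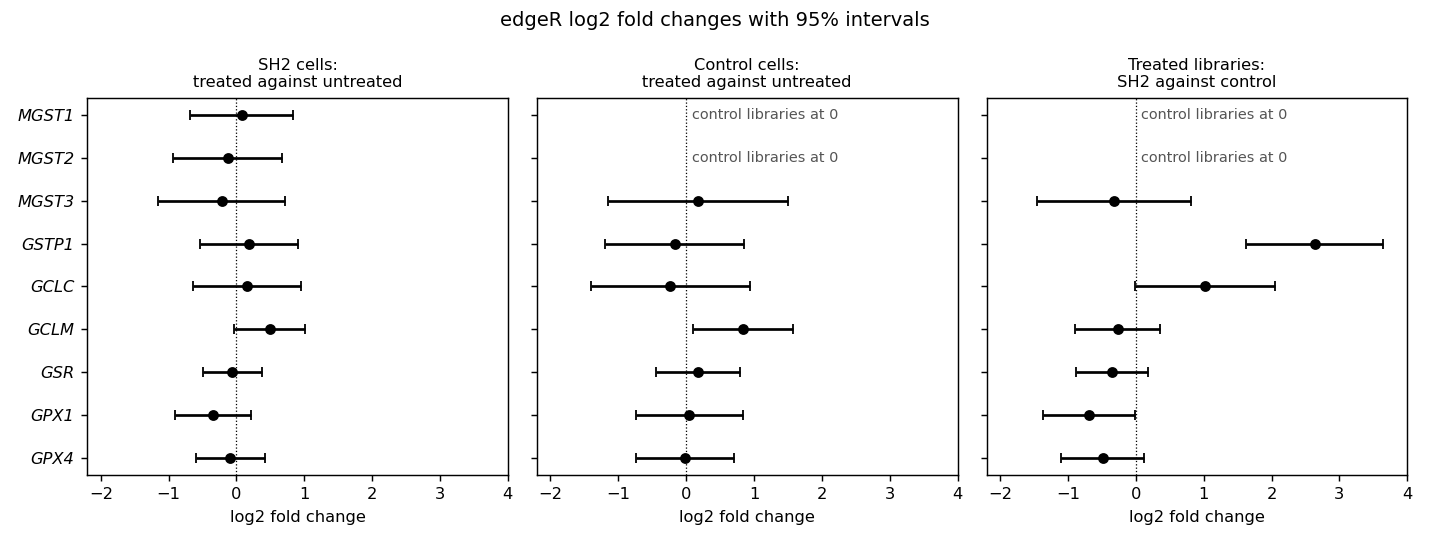
Log2 fold changes from edgeR (x axis) with 95% intervals for the 9 genes (y axis) in 3 comparisons: the doxycycline response of SH2 cells, the doxycycline response of control cells, and treated SH2 against treated control cells. GSTP1 at 2.63 lies farthest from 0; MGST1 and MGST2 have no estimate where control libraries are at 0.

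Genes around these 9 were read from 7 lists of the same pathways, with 125 genes of which 88 could be tested. None of the lists had a gene past the threshold in the doxycycline response of SH2 cells, in that of control cells or in the difference between them. Where a list gene is given below as moving 1 way in 4 of 4 sets, the share of all genes doing so was not computed. Between treated SH2 and treated control cells 10 of the 88 genes were called, 3 higher and 7 lower in SH2 cells, which is 11.4% against 11.1% of all genes. HMOX1, among the 3 higher, passed the filter on low counts through SH2 cells alone, so nothing is read from its call. The treated count was 17 with the set as a block. It was 5 without the treated SH2 library of set 3, and 3 when the treated control library of set 2, or that of set 4, was left out. GLO1, NQO2 and SOD2 passed in every fit that left out 1 library; the other 7 missed the threshold without each of the treated control libraries. Of the 12 fits that left out a library, MSRB1 lost its call in 9 and SECISBP2 in 6. ALOX5AP and HAGH lost theirs in 4 each, PRDX3 and HMOX1 in 3 each and AIFM2 in 2. Between untreated SH2 and untreated control cells 7 of the 88 list genes were called: GPX7, HMOX1 and AIFM2 higher and GGT7, GLO1, MSRB1 and NQO2 lower in SH2 cells. HMOX1 passed the filter on low counts through SH2 cells alone and GGT7 through control cells alone, so nothing is read from their calls. HMOX1 and GGT7 are also within the treated and untreated counts with the set as a block. That treated count also holds SCLY, which passed the filter through control cells alone. The untreated one also holds NQO1, which passed it through SH2 cells alone. Nothing is read from the calls of SCLY and NQO1 either. Over all genes 7.84% were called between untreated cells, 2.94% as higher and 4.9% as lower. GLO1 passed in every fit that left out 1 library, and it was the 1 call left of the 7 once the set 2 library of untreated control cells was left out. The untreated count was 14 with the set as a block, 2 to 3 without the untreated SH2 library of set 2, 3 or 4 or the set 4 library of untreated control cells, and 11 without the treated SH2 library of set 4.

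Among the other transferases and the membrane proteins of the MGST family, 1 of 8 tested genes was called and the median was -0.31. ALOX5AP, which presents arachidonic acid to 5-lipoxygenase, was at 86.3, 142, 172 and 340.2 CPM in treated SH2 cells and at 41.7 and 60.4 in treated control cells. Its difference was 1.86 ± 0.52 on the log2 scale, adjusted p = 0.0330; without the treated control library of set 2 it was 1.61 with an adjusted p of 0.225. The myeloid marker sum was also higher in SH2 than in control libraries. Among treated SH2 libraries that sum was highest in set 2 (19.0 CPM, against 14.8 in set 4), where ALOX5AP was highest in set 4. The part of the myeloid markers was not tested. GSTA1, GSTA2, GSTA3, GSTA5, GSTT2 and GSTT2B had no count in any library. GSTZ1, a transferase of tyrosine breakdown, was at 72.1, 72.4, 57.3 and 36.2 CPM in untreated and 79.2, 77.1, 90.9 and 112 CPM in treated SH2 cells. These groups did not overlap, and its response was 0.60 ± 0.30 with an adjusted p of 0.983. Of the other peroxidases only GPX7, an enzyme of the endoplasmic reticulum, could be tested, and it was not called between treated cells (1.46 on the log2 scale, adjusted p = 0.133); its level was 9.43 to 28.1 CPM in treated SH2 and 5.73 and 8.01 in treated control cells. Between untreated cells GPX7 was called, at 10.9 to 21.7 CPM in SH2 against 0.949 and 5.06 in control cells (2.35 on the log2 scale, adjusted p = 0.0395). That call was lost in 5 of the 12 fits that left out a library, with an adjusted p of 0.360 and a value of 1.67 once the set 2 library of untreated control cells was left out.

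In glutathione supply and use, 0 of 20 tested genes were called higher and 2 lower, with a median of 0.17. These were the successive enzymes that detoxify methylglyoxal with glutathione. GLO1 was at 54.0, 43.3, 26.0 and 24.3 CPM in treated SH2 and 152 and 139 in treated control cells, a difference of -1.98 ± 0.34 (adjusted p = 0.00191). HAGH was at 21.0, 9.49, 3.30 and 4.04 CPM against 50.3 and 53.9, a difference of -2.48 ± 0.63 (adjusted p = 0.0220). For both genes every SH2 library lay below every control library, and the share of all genes that do so was not computed. Neither differed between treated and untreated SH2 cells past the threshold. GGT7, a member of the gamma-glutamyltransferase family, had 0 counts in SH2 libraries and 23 in treated control libraries, at least 14.7-fold higher in control cells; 20 of the 23 counts were in set 2. Between treated cells GGT7 was called with the block (adjusted p = 0.0314) and not without it (0.0569), as was CHAC1, which cleaves glutathione (1.48, adjusted p = 0.00693 with the block). In untreated libraries GGT7 had 0 and 33 counts, at least 27.6-fold higher in control cells; since it passed the filter on low counts through control cells alone, nothing is read from its tests.

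The thioredoxin and peroxiredoxin system had 0 of 16 genes called higher and 2 lower, with a median of 0.34. PRDX3, the mitochondrial peroxiredoxin, was at 47.1, 41.5, 28.5 and 30.8 CPM in untreated SH2 cells and 19.3, 23.5, 13.5 and 4.38 in treated ones. It was lower in 4 of 4 sets and the groups did not overlap, with a response of -1.29 ± 0.38, an unadjusted p of 0.00466 and an adjusted p of 0.953. Control cells held 58.8 and 47.7 CPM untreated and 48.1 and 42.0 treated. Treated SH2 against treated control cells gave -1.58 ± 0.44 (adjusted p = 0.0354; 0.171 without the treated control library of set 2 and 0.120 without that of set 4). MSRB1, a selenoprotein that repairs oxidised methionine, was at 4.94 to 13.1 CPM in treated SH2 and at 21.2 and 26.7 in treated control cells (-1.34 ± 0.41, adjusted p = 0.0483, and 0.275 without the treated control library of set 4). It also missed the threshold with no filter on low counts (0.0590), by limma-trend (0.0642) and on the compared groups alone (0.115). SESN1, a stress-induced sestrin, was at 6.15, 8.30, 8.745 and 12.1 CPM in untreated and 13.8, 16.3, 6.92 and 45.8 CPM in treated SH2 cells. Its response did not pass the threshold, and was 0.47 on the log2 scale without the treated SH2 library of set 4. With the set as a block, TXNIP (2.93, adjusted p = 0.0125) and PRDX4 (1.88, adjusted p = 0.000885) were also called higher in treated SH2 cells.

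In the NRF2 pathway and NADPH supply, 1 of 22 genes was called higher and 2 lower, with a median of -0.02. HMOX1, which degrades heme, was at 6.28, 14.8, 45.5 and 41.8 CPM in treated SH2 cells and at 1.28 and 0 in treated control cells. It was the gene called higher, but it passed the filter on low counts through SH2 cells alone, so nothing is read from its tests. HMOX1 is also a gene of macrophages. The myeloid marker sum was higher in SH2 cells, while CSF1R, a marker of that list, had the higher mean in control cells. The part of these markers was not tested. NQO2, a quinone reductase, was at 4.19, 1.90, 2.64 and 4.38 CPM in treated SH2 and 16.7 and 22.5 in treated control cells (-2.57 ± 0.48, adjusted p = 0.00344). SOD2, the mitochondrial superoxide dismutase, was at 23.0, 32.3, 18.8 and 17.9 CPM in treated SH2 and 65.4 and 64.6 in treated control cells (-1.50 ± 0.31, adjusted p = 0.00586). Untreated control cells held 37.5 and 39.4 CPM of SOD2, within the untreated SH2 range of 28.3 to 48.3. NQO1, a widely used NRF2 target, was at 3.28, 4.15, 10.0 and 26.0 CPM in untreated and 0.838, 2.66, 3.30 and 8.76 CPM in treated SH2 cells, lower in 4 of 4 sets with a response of -1.46 ± 0.71 and an adjusted p of 0.983. The block added UGDH (1.82, adjusted p = 0.00153) and TKT (-1.20, adjusted p = 0.0477).

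Selenoprotein synthesis, on which GPX1 and GPX4 depend, had 0 of 10 genes called higher and 1 lower, with a median of -0.29. SECISBP2, the protein that reads the selenocysteine signal of such mRNAs, was at 28.9, 29.2, 23.7 and 24.9 CPM in treated SH2 and 50.3 and 55.8 in treated control cells (-0.99 ± 0.28, adjusted p = 0.0356, and 0.205 without the treated control library of set 4). It also missed the threshold with no filter on low counts (0.0996) and on the compared groups alone (0.0939). SEPHS2, which makes the selenium donor, was lower with doxycycline in 4 of 4 SH2 sets, with a response of -0.55 ± 0.29 and an adjusted p of 0.983. SCLY was at a mean of 1.11 CPM in treated SH2 and 5.65 in treated control cells. It was called lower in treated SH2 cells with the block, but passed the filter on low counts through control cells alone. Nothing is therefore read from its call.

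Among the genes of iron and lipid peroxidation 1 of 11 was called higher and 0 lower, with a median of -0.18. AIFM2, a reductase that protects membrane lipids apart from GPX4, was at 13.0, 8.35, 14.5 and 15.8 CPM in treated SH2 and 3.85 and 3.06 in treated control cells (1.89 ± 0.47, adjusted p = 0.0186; 0.0973 without the treated control library of set 2 and 0.167 without that of set 4). GCH1, which starts tetrahydrobiopterin synthesis, was higher with doxycycline in 4 of 4 SH2 sets, at 9.84, 11.9, 19.4 and 12.7 CPM untreated and 17.2, 18.2, 21.4 and 46.8 treated. Its response was 0.94 ± 0.36 with an adjusted p of 0.983, and 0.49 without the treated SH2 library of set 4. LPCAT3 loads polyunsaturated fatty acids onto phospholipids. It was at 13.1, 10.1, 9.07 and 16.0 CPM in untreated and 20.1, 16.3, 6.92 and 70.7 CPM in treated SH2 cells. Its response of 1.24 ± 0.54 did not pass the threshold, and was 0.25 without the treated SH2 library of set 4.

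**Figure D4:**
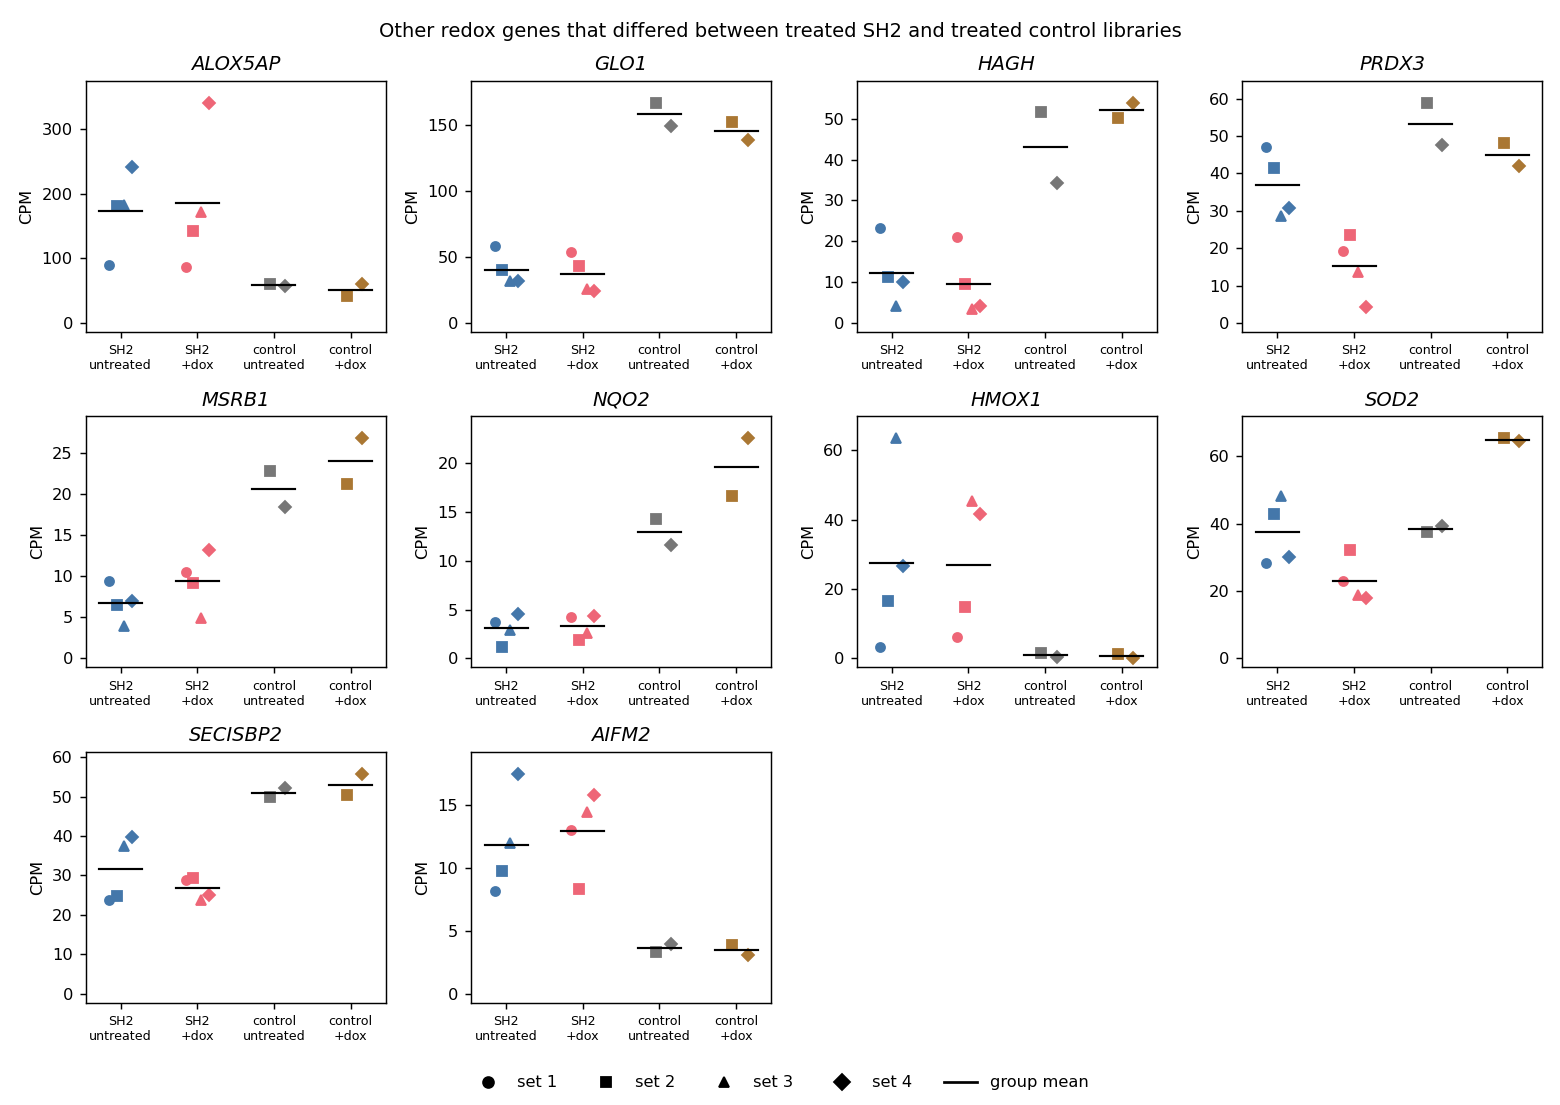
TMM-scaled CPM (y axis, linear, from 0) of the 10 pathway genes called between treated SH2 and treated control cells, by group (x axis), with 1 point per library, marker shapes for sets and a line at each group mean. HMOX1 passed the filter on low counts through SH2 cells alone. PRDX3 is the panel in which treated SH2 libraries (4.38 to 23.5 CPM) also lie below all untreated SH2 libraries (28.5 to 47.1 CPM).

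For each of the 9 genes, the genes averaging 3 or more in log2 CPM whose log2 CPM had the highest Pearson r with it over the 8 SH2 libraries were listed, as a description only, since the libraries share sets and depth. MGST1 was closest to GTF2E2 (0.957) and MGST2 to KDM7A (0.980). MGST3 was closest to NDUFAF3 (0.993) and PLIN2 (0.9925), and GSTP1 to TOLLIP (0.989) and PSMD13 (0.962). For GCLC the closest was PPAPDC1B (0.989), for GCLM SNX27 (0.906), and for GSR LMF1 (0.948). GPX1 was closest to FBRSL1 (0.983) and RORB (0.978), and GPX4 to TPP1 (0.965) and SCNM1 (0.963). No member was among the closest genes of another member. Each r is the highest found in a search over many genes with 8 libraries, so its height is not read as a link. By ranks (Spearman), GCLM and SNX27 had 0.595, the lowest of the listed pairs.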

How the data were processed

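Poly(A) RNA of 12 libraries was read at transcript ends with a QuantSeq kit, per the labels' protocols. The deposited files hold gene counts in whole reads. Per the submitters' processing notes HTSeq, STAR, FastQC and DESeq2 were used with hg38 (GRCh38); tool versions and gene annotation: not given in the sources used here. The authors' deposited normalized signal table equals these counts times a constant per library (100% of values whole, tolerance 0.01), and gave the gene names. Each count file has 64253 gene IDs and 5 summary lines, left out of library sizes; per library, 42.2% to 63.8% of reads were not unique, 3.25% to 7.73% outside genes and 1.11% to 1.62% ambiguous. On reads recovered from the table, the count test of the SH2 doxycycline response called 2 genes.

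Counts were fitted in R 4.3.3 with edgeR 4.0.16: filterByExpr by group (minimum count 10), TMM, 1 term per group over all 12 libraries, robust quasi-likelihood, and Benjamini-Hochberg adjustment over 11968 genes called at 0.05. The common biological coefficient of variation came to 0.376. A floor of 3 counts covers counting error alone: without molecular identifiers, reads may be copies of one molecule. The 9 genes and all lists were chosen with earlier results of these data known. Named list genes are those called between treated cells and the smallest p-values of each list; genes called only with the block were chosen after their values were seen. Neighbours needed a mean log2 CPM of at least 3. The mean doxycycline response was added after seeing the data. Scripts were tested on simulated data.

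No replicate pair agreed within sampling noise (chi-square per degree of freedom 8.39 to 47.7). The labels give the set numbers. Deviations from group means correlated at 0.182 to 0.650 between same-set SH2 libraries and at -0.544 to 0.267 between other sets. All 4 same-set pairs lay above 0.1, and the set numbers were taken as pairs. The treated library of set 2 followed the untreated library of set 1 (0.267) more closely than its own partner (0.182). The main fit has no set term; values with the set as a block are given where they change a call or a count. Alternatives were DESeq2 size factors, no filter, the set as a replicate block, the Wald test of DESeq2 1.42.0, the compared groups alone, limma-trend (limma 3.58.1, pseudocount 1), leaving out each library, and leaving out both SH2 libraries of set 4.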

Additional observations from a re-analysis of the deposited data

How the results depend on the processing

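In treated against untreated SH2 cells the 2 genes became 47 with no filter on low counts, 6 with the set as a replicate block, 16 by DESeq2's Wald test, 0 on the compared groups alone, 1 without both SH2 libraries of set 4, and 0 to 3 when each library was left out. With no filter, 3 genes passed in control cells, 3 in the difference between responses and 16 in the mean response; that difference gave 1 with the block and 2 by DESeq2. Between treated cells the 1326 genes became 2171 with the block and 789 on the compared groups alone, and 645 to 1462 when leaving out a library (645 and 737 without the set 4 or set 2 library of treated control cells). Between untreated cells the 938 became 1449 with no filter, 1505 with the block, and 343 to 1202 (343 and 490 without the untreated control library of set 2 or 4). The 10 pathway genes called between treated cells became 16 with no filter, 17 with the block, 6 on the compared groups alone, and 3 to 12 when leaving out a library; GLO1, NQO2 and SOD2 stayed past the threshold in every alternative run. The 7 called between untreated cells became 13 with no filter, 14 with the block, and 1 to 11 when leaving out a library. Of the 7 members with counts in both cells, the block changed no call between treated cells other than that of GCLC. No member was called for doxycycline in any alternative.

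Signs turned for small responses. Without both SH2 libraries of set 4, MGST2 was 0.00677 and GSTP1 -0.23 in the SH2 response, GSTP1 -0.0575 in the difference, and MGST3 0.0570, GSTP1 -0.20 and GCLC 0.0541 in the mean response; GPX4 in control cells was 0.0102 with no filter, and GSTP1 -0.0248 in the mean response by limma-trend. LPCAT3 between treated cells was -0.16 by limma-trend and -0.68 without both set 4 libraries, and -0.68 to 0.64 when leaving out a library. Leaving out each library gave these log2 ranges. In the SH2 response they were -0.22 to 0.28 for MGST1, -0.34 to 0.15 for MGST2, -0.74 to 0.11 for MGST3, -0.0927 to 0.41 for GSTP1, -0.0812 to 0.58 for GCLC and -0.35 to 0.0312 for GPX4. In the control response they were -0.12 to 0.56 for MGST3, -0.76 to 0.25 for GSTP1, -0.73 to 0.15 for GCLC, -0.13 to 0.43 for GSR, -0.29 to 0.33 for GPX1 and -0.14 to 0.10 for GPX4. In the difference they were -0.0786 to 0.93 for GSTP1, -0.0019 to 0.88 for GCLC, -0.50 to 0.0695 for GSR and -0.33 to 0.0506 for GPX4. In the mean response they were -0.28 to 0.17 for MGST3, -0.29 to 0.21 for GSTP1, -0.29 to 0.17 for GCLC, -0.10 to 0.18 for GSR and -0.19 to 0.00588 for GPX4. The cause of these shifts was not tested. With 2 control libraries per group, a control arm left with 1 library was assumed to vary like the other groups; GCLC, at 27 to 131 counts per library, had the least depth of the genes present in all libraries.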
